A study of Mus musculus with 6 samples.

Results

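Rag1, Rag2 and Dntt, the genes of the V(D)J recombinase and of terminal transferase, were measured by 5 of the 45037 probe sets that are not array controls. The members were all probe sets for which the platform annotation lists a single gene symbol equal to Rag1, Rag2 or Dntt. Rag1 had 1 probe set, Rag2 had 1 and Dntt had 3. RNA came from LSK cells, sorted from bone marrow at 6 months of age in mice of strain CD57BL/6, as the labels spell it. LSK cells are the marrow fraction with Sca-1 and Kit but no mature lineage markers, in which blood stem cells and early progenitors are found. The groups were Tet1 KO, in which the gene for a 5-methylcytosine dioxygenase is disrupted, and WT, each with 3 samples and 1 Affymetrix array per sample. Whether the Tet1 deletion was made in all cells, which exons it removed, and whether each sample came from its own mouse are not stated in the labels. The p-values cover the spread among the samples only, which may be technical. All values are log2 intensities, and differences are Tet1 KO minus WT.

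Rag1 and Rag2 encode the subunits of the enzyme that cuts DNA at the borders of antigen receptor gene segments. Rag1 carries the catalytic site and binds the recombination signal, and Rag2 is its cofactor and reads a histone mark of active chromatin. Dntt encodes terminal deoxynucleotidyl transferase, a polymerase that adds nucleotides without a template at the joints. The genes are used in developing B and T cells, and their transcripts first appear in lymphoid-primed progenitors, which lie within the LSK gate.

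Rag2 and Rag1 lie next to each other on chromosome 2 of GRCm38.p6, at 101624712 to 101632528 and 101638252 to 101649532, with 5723 bases between their annotated ends. Dntt lies on chromosome 19 at 41029275 to 41059525. The 250 bases before each RefSeq start are shown because Tet1 acts on methylated CpG and because the array values of the 3 genes were compared for shared variation. Capitals mark each CpG, and the sequences are written 5′ to 3′ on the gene's own strand, from RefSeq on GRCm38.p6.
Rag1 (chr2:101649533-101649782, minus strand): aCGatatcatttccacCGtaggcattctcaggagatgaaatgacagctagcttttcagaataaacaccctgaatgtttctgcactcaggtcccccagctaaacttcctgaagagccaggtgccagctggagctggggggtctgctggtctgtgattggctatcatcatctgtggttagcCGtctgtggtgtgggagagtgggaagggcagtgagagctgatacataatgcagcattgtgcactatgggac
Rag2 (chr2:101624462-101624711, plus strand): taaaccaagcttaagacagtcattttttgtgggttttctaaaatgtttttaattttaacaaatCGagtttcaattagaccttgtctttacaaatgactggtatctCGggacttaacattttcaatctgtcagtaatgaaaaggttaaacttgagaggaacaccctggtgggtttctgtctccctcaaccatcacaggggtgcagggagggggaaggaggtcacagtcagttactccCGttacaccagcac
Dntt (chr19:41029025-41029274, plus strand): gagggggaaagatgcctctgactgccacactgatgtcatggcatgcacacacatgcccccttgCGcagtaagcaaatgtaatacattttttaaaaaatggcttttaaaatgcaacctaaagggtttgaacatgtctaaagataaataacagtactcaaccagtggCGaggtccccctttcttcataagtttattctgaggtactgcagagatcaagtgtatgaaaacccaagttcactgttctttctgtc
Rag1 and Rag2 each held 3 CpG in this window and Dntt held 2, against a median of 6 over 32851 RefSeq windows of the same length. At most 3 CpG were found in 37.8% of the windows and at most 2 in 29.0%, so low counts are common. The E-box CANNTG, the letters bound by E proteins such as E2A, occurred 3 times in the Rag1 window. It occurred 3 times in the Dntt window and 1 time in the Rag2 window, and at least 1 was present in 66.2% of all windows. The core GGGAA, bound by Ikaros, occurred 1 time in each of the 3 windows and in 56.2% of all windows. A CCAAT box, on the reverse strand, was found only in the Rag1 window among the 3, and in 33.8% of all windows. TATAAA was found in none of the 3 and in 12.4% of all windows. All motifs were searched on both strands, and CpG and the E-box pattern read the same on both. These matches describe letters and do not show binding, and methylation was not measured on these arrays.

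The arrays were checked against their labels first. The brightest Tet1 probe set read 6.26, 5.63 and 5.51 in Tet1 KO, against 6.89, 6.80 and 6.75 in WT, and at all 4 Tet1 probe sets the groups did not overlap. The labels do not place the deletion relative to these probes. Kit read 9.89, 9.68 and 9.95 in Tet1 KO and 10.02, 9.83 and 9.98 in WT, while the gene of Sca-1 was not analysed here. The T-cell gene Cd3e and the B-cell gene Ms4a1 read below 4.39 on all 6 arrays. Of 6 measured genes of mature lineages, the other 4, Cd4, Cd8a, Itgam and Siglech, had means above 4.39. That level served as a guide to background: 27 probe sets target bacterial controls, and the highest reading per array was averaged. Tet1 KO replicate 2 stood apart: its mean correlation with the other arrays was 0.940, against 0.966 to 0.972 for each of the others, and its brightest bacterial control read 4.87, against 4.21 to 4.37. The main results are therefore given with and without it.

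Rag2 was higher in Tet1 KO by mean, but the difference did not pass the test across all probe sets. Its probe set 1418065_at read 6.61, 5.88 and 6.49 in Tet1 KO, against 5.20, 6.02 and 5.74 in WT. Of the Tet1 KO arrays, 2 lay above every WT array, and replicate 2 lay below the highest WT array, so the groups overlapped. The means were 6.32 ± 0.39 and 5.65 ± 0.42 (SD, n = 3 each), a 1.59-fold ratio. The difference was 0.67 with a 95% confidence interval of -0.01 to 1.36 and a limma adjusted p of 0.686. In bulk RNA, a change in the number of cells of a type and a change in RNA per cell cannot be told apart. All 6 arrays read above their own brightest bacterial control. Without Tet1 KO replicate 2 the difference was 0.90 (95% confidence interval 0.25 to 1.54), with a limma adjusted p of 0.594. Without WT replicate 1, the lowest array, it was 0.45.

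Rag1 was uneven between the Tet1 KO samples. Its probe set 1450680_at read 5.86, 2.96 and 5.52 in Tet1 KO, against 4.11, 4.72 and 3.68 in WT. Tet1 KO replicates 1 and 3 lay above every WT array and replicate 2 lay below every WT array. The Tet1 KO values therefore spanned 2.91 and the WT values 1.05. The spread within Tet1 KO, an SD of 1.59, exceeded that of 99.0% of all probe sets, and the WT spread of 0.53 exceeded 93.3%. Only 3 arrays, Tet1 KO replicates 1 and 3 and WT replicate 2, read above their own brightest bacterial control, and the other 3 values lay under it. The means were 4.78 ± 1.59 in Tet1 KO and 4.17 ± 0.53 in WT (SD, n = 3 each), which gave 0.61 (standard error 0.76) and a limma adjusted p of 0.780. The interval of -1.21 to 2.43 leaves the direction unsettled. Without Tet1 KO replicate 2 the difference was 1.52 (standard error 0.32), with an unadjusted limma p of 0.00386 and an adjusted p of 0.578. In that fit 3607 of 45037 probe sets had an unadjusted limma p under 0.05. The Rag1 difference did not reach the adjusted threshold in either fit. Without replicate 1 or replicate 3 of Tet1 KO it was 0.07 or 0.24, and without WT replicate 3 it was 0.36.

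**Figure D1:**
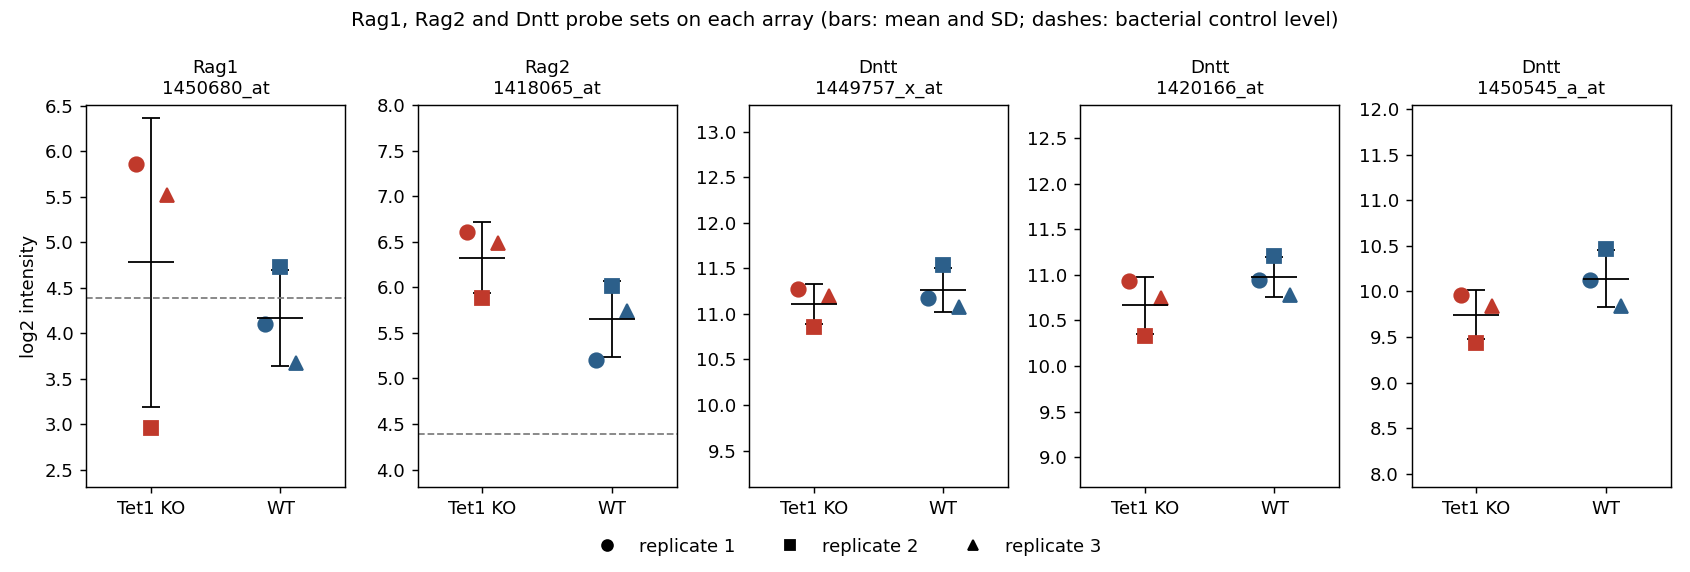
Log2 intensity of each Rag1, Rag2 and Dntt probe set on the 3 Tet1 KO and 3 WT arrays. Symbols mark the replicates, bars show the mean and SD, and the dashed line is the bacterial control level of 4.39, drawn where it falls in the range. Each panel spans the same number of log2 units, and the wide spread of Rag1 in Tet1 KO, with replicate 2 at 2.96, stands beside the narrow spread of Dntt.

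Dntt was far above the bacterial control level on every array, and its 3 probe sets were close to each other in pattern. The brightest, 1449757_x_at, read 11.27, 10.86 and 11.20 in Tet1 KO, against 11.18, 11.54 and 11.08 in WT. The groups overlapped, with 1 Tet1 KO array below every WT array. Probe set 1420166_at read 10.94, 10.33 and 10.74 in Tet1 KO, against 10.95, 11.21 and 10.78 in WT, with 2 Tet1 KO arrays below every WT array. At 1450545_a_at the values were 9.96, 9.44 and 9.84 in Tet1 KO, against 10.13, 10.46 and 9.84 in WT. All 3 were lower in Tet1 KO by mean, and none passed the test. They gave -0.15 (95% confidence interval -0.62 to 0.32), -0.31 (-0.82 to 0.20) and -0.40 (-0.94 to 0.15), with limma adjusted p-values of 0.783, 0.690 and 0.686. The pairwise correlations of the 3 probe sets over the 6 arrays were 0.938 to 0.977. These are readings of the same transcripts on the same arrays and not independent evidence. In the maker's naming, the ending _x_at marks probes that may also bind other transcripts. Without Tet1 KO replicate 2 the 3 differences were -0.03, -0.14 and -0.24, and without WT replicate 2 they were -0.02, -0.19 and -0.24.

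The members were next set against all probe sets. None of the 5 passed an adjusted p of 0.05, and 0 of 45037 probe sets did, or 0%. None of the 5 passed an unadjusted limma p of 0.05, which 3065 probe sets, or 6.81%, did. At none of the 5 were the groups without overlap, a pattern seen upward in Tet1 KO at 9.96% of probe sets and downward at 6.29%. The closest to the threshold was Rag2, at an unadjusted limma p of 0.0537. By the mean alone, 57.1% of probe sets were higher in Tet1 KO, and 56.5% of genes at their brightest probe set. For a single probe set, the smallest exact permutation p with 3 arrays per genotype is 0.1.

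**Figure D2:**
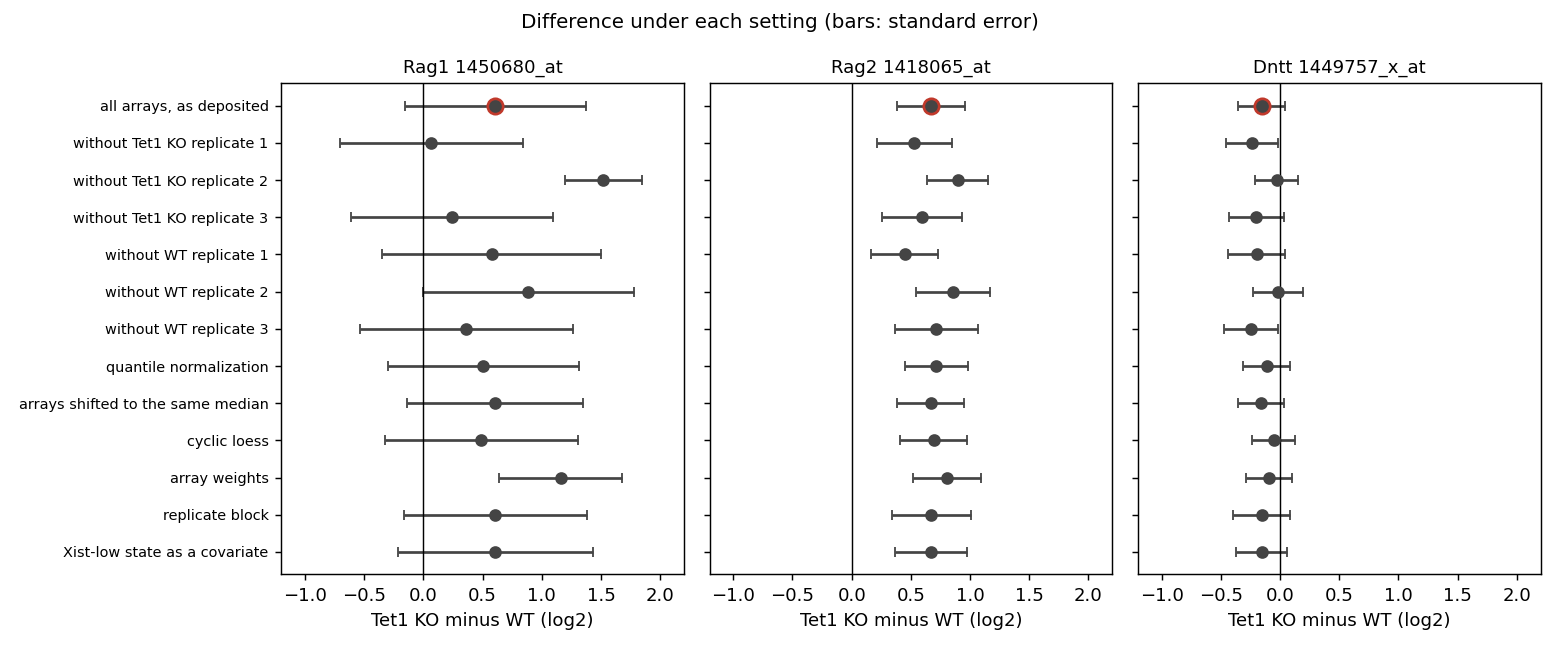
Tet1 KO minus WT difference (log2) of the brightest probe set of Rag1, Rag2 and Dntt with all arrays as deposited (red), without each array in turn, and under other normalizations or models. Bars are standard errors. Rag2 stayed between 0.45 and 0.90 and Dntt between -0.25 and -0.02, while Rag1 ran between 0.07 and 1.52.

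Within each genotype, Rag1, Rag2 and Dntt shared part of their order of arrays. Relative to each gene's WT mean, Tet1 KO replicate 1 stood at 1.69 for Rag1, 0.96 for Rag2 and 0.01 for Dntt. Replicate 3 was similar, at 1.35, 0.83 and -0.06. Tet1 KO replicate 2 was the lowest of its group for all 3 genes, at -1.21, 0.23 and -0.41. Among the WT arrays, replicate 2 was the highest for all 3 genes, at 0.55, 0.37 and 0.27.

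Over the 6 arrays, Pearson's r between Rag1 and Rag2 was 0.715, with an exact permutation p of 0.10 and 0.225 after adjustment over the 3 pairs. Spearman's rho was 0.771 (exact permutation p = 0.103, adjusted 0.154). With the 2 arrays farthest from the Rag1 median left out, Tet1 KO replicates 1 and 2, r was 0.801. For Rag1 and Dntt, r was 0.654 (exact permutation p = 0.15, adjusted 0.225) and rho 0.829 (exact permutation p = 0.0583, adjusted 0.154). Left without the same 2 arrays, that r was 0.382, with the difference between the groups still in it. Rag2 and Dntt had an r of 0.248 (exact permutation p = 0.678, adjusted 0.678) and a rho of 0.600 (exact permutation p = 0.242, adjusted 0.242). Without Tet1 KO replicate 1 and WT replicate 1, that r was 0.302. None of the 3 relations passed adjustment. Each gene's group means were then subtracted, which leaves only the spread among samples of 1 genotype. The r values were 0.749 for Rag1 and Rag2, 0.870 for Rag1 and Dntt and 0.797 for Rag2 and Dntt, given as descriptions of 6 arrays. With group means kept, the r values without Tet1 KO replicate 2 were 0.874, 0.330 and 0.251. Their counterparts over the 6 arrays were the 0.715, 0.654 and 0.248 given above. The r values with group means removed were not computed without that array.

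**Figure D3:**
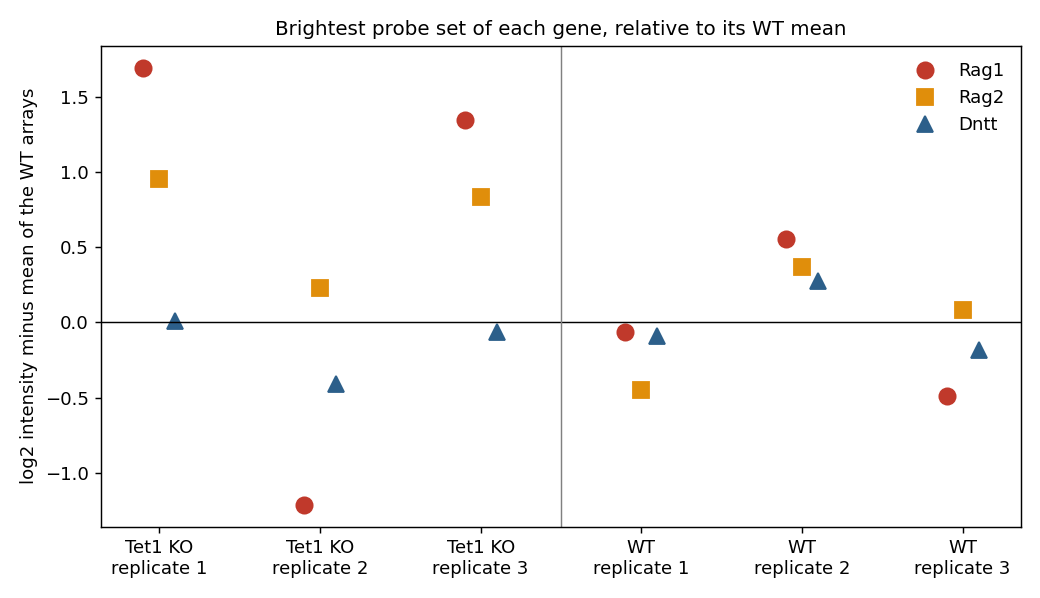
Log2 intensity of the brightest Rag1, Rag2 and Dntt probe sets on each array, minus the mean of that probe set over the 3 WT arrays. Tet1 KO replicate 2 is the lowest of its group for all 3 genes, WT replicate 2 is the highest of its group, and Rag2 lies above its WT mean on all 3 Tet1 KO arrays while Dntt does not.

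Rag2 was next set against Dntt within each array. This contrast was chosen after the values were seen. The log2 difference of Rag2 minus Dntt 1449757_x_at, set to 0 at its WT mean, was 0.95, 0.63 and 0.90 in Tet1 KO, against -0.36, 0.09 and 0.27 in WT. Every Tet1 KO array lay above every WT array, and the same held with the other 2 Dntt probe sets and after quantile normalization or cyclic loess. The mean shift was 0.83, with an exact permutation p of 0.10, the smallest that 3 against 3 can give. Such separation upward was seen for 6.90% of all other probe sets set against Dntt 1449757_x_at. With 1420166_at and 1450545_a_at, which read lower in Tet1 KO, it was seen for 13.4% and 16.5%. For Rag1 minus Dntt 1449757_x_at the values were 1.68, -0.80 and 1.41 in Tet1 KO, against 0.03, 0.28 and -0.31 in WT, and the groups overlapped.

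Among the partners that open and join the ends cut by the recombinase, no measured gene passed the test in either direction. Hmgb1 and Dclre1c, also on this list, were not analysed here. By mean, 8 of 15 measured genes were higher and 7 lower, where 56.5% of all genes were higher. At the adjusted threshold 0 passed, as did 0 of all 18193 genes, and 0 passed at an unadjusted limma p of 0.05, against 6.73% of all genes. The median difference was 0.03, beside 0.05 for all genes, and -0.04 without Tet1 KO replicate 2. Xrcc6, whose Ku70 protein binds broken ends, read 8.50, 8.02 and 8.66 in Tet1 KO, against 8.77, 8.81 and 8.78 in WT. The Tet1 KO arrays were all below the WT arrays there, as also for Hmgb2, a DNA-bending cofactor of the recombinase, at -0.25 (SE 0.14), and Rad50, of the complex that senses breaks, at -0.56 (SE 0.28). These were 3 of 15 without overlap downward, where 6.88% of all genes were. Mre11a, the nuclease of the Rad50 complex, gave 0.69 (SE 0.33). The DNA polymerases most closely related to Dntt, Polm and Poll, gave 0.03 (SE 0.17) and 0.31 (SE 0.26). The mean of Polm over the arrays lay under the bacterial control level. Leaving out Tet1 KO replicate 2 gave 0.36 for Mre11a, -0.27 for Rad50, -0.20 for Xrcc6, 0.10 for Poll and -0.04 for Polm.

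Transcription factors known to act at the Rag or Dntt loci went both ways. Of 21 measured, 9 were higher and 12 lower by mean, where 56.5% of all genes were higher, 0 passed the adjusted test, and at an unadjusted limma p of 0.05 there were 2 higher and 1 lower. For comparison, 3.02% of all genes passed that level upward and 3.70% downward. Groups without overlap were found for 3 upward and 4 downward, beside 10.3% and 6.88% of all genes. The median was -0.06, and 0.15 without Tet1 KO replicate 2, beside 0.02 for all genes then. Gfi1b, a repressor reported to act against Rag expression, read 8.18, 8.43 and 8.32 in Tet1 KO, against 9.25, 8.97 and 9.14 in WT. The groups did not overlap, at a difference of -0.81 (SE 0.16; limma adjusted p = 0.686). Lef1, a factor of early lymphoid cells, read 6.65, 5.89 and 6.84 in Tet1 KO, against 5.24, 5.28 and 5.80 in WT. Pax5, the B-cell commitment factor, gave 0.42 (SE 0.15), and Tcf3, which encodes the E2A proteins, gave -0.55 (SE 0.24; -0.35 without Tet1 KO replicate 2).

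Genes of lymphoid-primed progenitors, the LSK cells in which Rag and Dntt transcription begins, were both higher and lower in Tet1 KO by mean. Of 13 measured, 8 were higher and 5 lower, where 56.5% of all genes were higher. None passed the adjusted test, and 0 were higher and 1 lower at an unadjusted limma p of 0.05, beside 3.02% and 3.70% of all genes. The median was 0.10, beside 0.05 for all genes, and 0.20 without Tet1 KO replicate 2. Ccr7, a chemokine receptor, was the 1 lower gene, at -1.67 (SE 0.66), but its mean over the 6 arrays lay under the bacterial control level. The other genes with the smallest p-values were Ly86, a partner of a Toll-like receptor homologue, at 0.99 (SE 0.51), the cannabinoid receptor gene Cnr2 at 0.91 (SE 0.50; 1.41 without Tet1 KO replicate 2) and the chromatin organiser Satb1 at 0.22 (SE 0.15). Il7r, the receptor that early lymphoid cells need, read 6.36, 5.46 and 6.20 in Tet1 KO and 6.06, 6.20 and 5.19 in WT.

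B-lineage genes were both higher and lower in Tet1 KO by mean. Of 12 measured, 8 were higher and 4 lower, where 56.5% of all genes were higher. Only 7 of the 12 had a mean over the 6 arrays above the bacterial control level. None passed the adjusted test, and 1 was higher and 1 lower at an unadjusted limma p of 0.05, which 3.02% of all genes passed upward and 3.70% downward. The median was 0.19, beside 0.05 for all genes, and 0.35 without Tet1 KO replicate 2. Vpreb1 and Igll1 encode the surrogate light chain, and Vpreb1 read 10.34, 9.61 and 10.09 in Tet1 KO, against 7.55, 8.31 and 8.99 in WT. Igll1 had the split seen for Rag1, with 9.0, 5.95 and 8.41 in Tet1 KO, against 6.66, 6.29 and 6.72 in WT. Pou2af1, a coactivator of B cells, read 6.08, 3.46 and 5.37 in Tet1 KO, against 3.14, 3.66 and 4.07 in WT, so Tet1 KO replicates 1 and 3 lay above every WT array and replicate 2 within the WT range. Its mean over the 6 arrays was under the bacterial control level. Cd79a, of the B-cell receptor complex, read 6.05, 5.23 and 6.12 in Tet1 KO, against 5.55, 5.87 and 5.32 in WT. Igll1 and Cd79a were singled out after their values were seen. Of the other genes with small p-values, Cd72 gave -0.65 (SE 0.19) and Fcrla 0.27 (SE 0.17).

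The 4 B-lineage genes named first can be set beside the recombinase array by array. Over the 6 arrays, Cd79a had an r of 0.97 with Rag1 and 0.72 with Rag2, and Igll1 had 0.88 and 0.75. Pou2af1 had 0.82 and 0.89, and Vpreb1 0.41 and 0.88. Without Tet1 KO replicate 2 the same pairs gave 0.96 and 0.82, 0.85 and 0.80, 0.84 and 0.92, and 0.76 and 0.92. The r values of these genes with Dntt were 0.69, 0.24, 0.20 and -0.24, and 0.47, -0.19, -0.09 and -0.14 without that array. Other genes of the list had low or negative values: r over the 6 arrays was -0.22 with Rag1 and -0.72 with Rag2 for Cd72, 0.02 and -0.63 for Bank1, and -0.34 and 0.18 for Fcrla. Bank1 was named after its values were seen. An r over 0.5 with Rag1 was found for 4 of the 12 genes, beside 16.5% of all genes and 11 of the 21 transcription factors. With Rag2 the count was 7 of the 12, beside 11.7% of all genes, and with Dntt it was 2, beside 18.8%. Of the genes counted with Rag2, Blnk, Pou2af1 and Cd22 had means under the bacterial control level. Blnk and Pou2af1 were also among those counted with Rag1. Bank1 lay under that level too. Blnk and Cd22 were named here after their values were seen. Over each list as a whole, the median r with Rag1 was 0.40 for the B-lineage genes, 0.24 for the lymphoid-primed genes and -0.46 for the T-lineage genes, beside -0.13 for all genes. The median r with Rag2 was 0.59 for the B-lineage genes, 0.36 for the lymphoid-primed genes and -0.16 for the T-lineage genes, beside 0.02 for all genes. With Dntt these medians were 0.23, 0.02 and -0.42, beside -0.18 for all genes. Leaving out Tet1 KO replicate 2, the medians with Rag1 were 0.43, 0.54 and -0.07, beside 0.01 for all genes. Those with Rag2 were 0.61, 0.38 and -0.11, beside 0.06 for all genes, and those with Dntt were -0.06, 0.00 and -0.26, beside -0.05. Among the other lists, the 6-array medians with Rag1, Rag2 and Dntt were 0.52, 0.24 and 0.34 for the transcription factors. They were 0.37, -0.09 and 0.46 for the LSK genes, so the B-lineage list was highest with Rag2 only. The joining partners had -0.15, 0.08 and 0.24, and the mature lineage genes -0.34, -0.27 and -0.66. Without Tet1 KO replicate 2 the transcription factors had 0.48, 0.29 and -0.10, and the LSK genes 0.05, 0.06 and 0.04. These are descriptions of 6 arrays from 1 study.

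T-lineage genes were mostly dim. Of 12 measured, 4 had a mean above the bacterial control level. By mean 8 were higher and 4 lower, where 56.5% of all genes were higher, and 0 passed the adjusted test. Cd8a was the 1 gene at an unadjusted limma p of 0.05, upward, as were 3.02% of all genes. Its difference was 0.53 (SE 0.21), and 0.35 without Tet1 KO replicate 2. The median difference was 0.087, and -0.022 without that array. The other genes with the smallest p-values were Cd3g at 0.30 (SE 0.17), Cd3d at 0.33 (SE 0.21; 0.18 without Tet1 KO replicate 2) and Cd5 at -0.15 (SE 0.17), all below the bacterial control level. Set against each gene's WT mean, the list's median was 0.24 for Tet1 KO replicate 2, with -0.04 and 0.01 for replicates 1 and 3. The mean level of the list ran between 4.13 and 4.42 on the Tet1 KO arrays and between 4.10 and 4.18 on the WT arrays.

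Markers of the sort and of mature cells were compared in the same fit. Of 5 measured LSK genes, 1 was higher and 4 lower, where 56.5% of all genes were higher. At the adjusted limma threshold 0 passed, as did 0% of all genes, and 0 passed unadjusted, beside 6.73% of all genes. The list's mean level was 9.0 to 9.18 in Tet1 KO and 9.01 to 9.16 in WT. Cd34, a progenitor surface marker, read 10.89, 10.57 and 10.82 in Tet1 KO and 10.61, 10.85 and 10.98 in WT. Slamf1, a stem cell marker, read 5.83, 7.97 and 6.01 in Tet1 KO and 5.97, 5.86 and 5.63 in WT. Its difference was 0.78 (SE 0.55), and 0.10 without Tet1 KO replicate 2. Cd48 gave -0.41 (SE 0.26) and Procr -0.13 (SE 0.36), with Procr at 0.14 without that array. Of 6 measured genes of mature lineages, 4 were higher and 2 lower, where 56.5% of all genes were higher, and the list's mean level was 4.69 to 5.01 in Tet1 KO and 4.66 to 4.83 in WT. Itgam gave -0.43 (SE 0.26), Cd4 0.11 (SE 0.15) and Siglech 0.12 (SE 0.27), with Cd4 at 0.06 and Siglech at -0.14 without Tet1 KO replicate 2. Cd8a, also in the T-lineage list, had no overlap upward and was the 1 gene of the 6 at an unadjusted limma p of 0.05, beside 10.3% and 3.02% of all genes in that direction. Below the bacterial control level were 2 of these 6, Cd3e and Ms4a1. The part that a different mix of cells played in the Rag1 and Rag2 values was not tested.

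**Figure D4:**
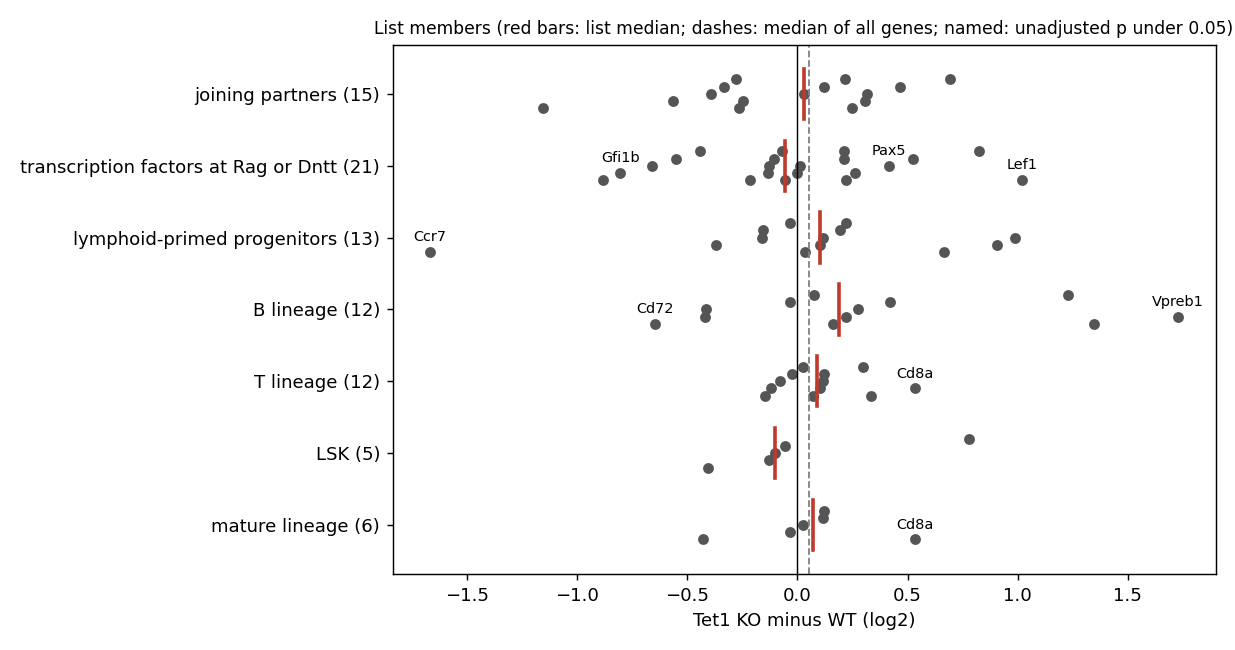
Tet1 KO minus WT difference (log2) of each measured gene in 7 lists, at its brightest probe set, with the number measured in brackets. Red bars are list medians and the dashed line is the median of all genes, 0.05. Gene names mark an unadjusted limma p under 0.05, and no gene passed adjustment. Vpreb1 at 1.73 and Ccr7 at -1.67 lie farthest out.

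The genes most like the mean pattern of Rag1, Rag2 and Dntt were Psd3, Rab11fip1 and Shmt1, with r values of 0.984, 0.982 and 0.982 over 6 arrays. They were picked as the 3 highest among 6767 genes above the bacterial control level with an SD of at least 0.3, of which 48 had an r above 0.9. The mean pattern was made of centred but unscaled log2 values. Rag1, with the widest spread, therefore weighs most in it, and only 3 Rag1 arrays read above their own brightest bacterial control. Psd3 read 6.02, 4.93 and 5.90 in Tet1 KO, against 4.98, 5.49 and 5.16 in WT. Shmt1, a folate-dependent enzyme of serine and glycine metabolism, read 9.39, 8.03 and 9.04 in Tet1 KO, against 8.38, 9.04 and 8.35 in WT. In both, as in Rab11fip1, Tet1 KO replicate 2 was the lowest array.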

How the data were processed

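The members and the gene lists were chosen with earlier results of these data known. Values were the deposited log2 intensities, with 45101 probe sets on each of 6 arrays. Per the labels' protocols, cDNA was made from 125 ng of RNA. How the authors corrected, normalized and summarized the intensities is not stated in the sources used. Array medians lay within 0.0694, and values were used as deposited.

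A platform annotation table gave 34945 non-control probe sets with 1 symbol, for 18193 genes. It named 79 of the 92 list genes, and the others were not analysed here. The 45037 non-control probe sets were fitted in limma 3.58.1 (R 4.3.3), Tet1 KO against WT, two-sided, with Benjamini-Hochberg adjustment over all of them, tested on simulated data. Lists use each gene's brightest probe set in that fit. Named genes were the members, Tet1, the 4 smallest p-values per list, every gene of the LSK and mature lineage lists, and the 3 genes most like the members' mean pattern, with others marked as chosen later. Il7r, Cd34, Polm and Poll were also added later. Permutations used scipy 1.17.1, and plots matplotlib 3.10.9.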

Additional observations from a re-analysis of the deposited data

How the results depend on the processing

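The direction of each of the 5 probe sets held under every alternative in which it was fitted (normalization, filters on dim probe sets, variance models, array weights, replicate block, the Xist-low arrays, 1 in each group, as a covariate, and leaving out each array), and none passed the adjusted threshold in any. Rag1 could not be fitted above the median level, which it does not reach. The brightest or mean probe set per gene gave 1 value for each gene, so Dntt 1420166_at and 1450545_a_at had none of their own there. The Rag1 difference ran between 0.07 and 1.52 when arrays were left out, and was 1.16 with array weights and 0.36 without WT replicate 3. For Rag2 the range over arrays was 0.45 to 0.90, with an unadjusted limma p under 0.05 in 6 of 18 alternatives. These alternatives reuse the same arrays and are not independent. When each array was left out, between 1558 and 4627 of all 45037 probe sets passed that level. For Dntt 1449757_x_at the range over arrays was -0.25 to -0.02, with -0.29 as a mean of the 3 probe sets and -0.05 with cyclic loess. The count of probe sets past the threshold was 0, and 1 with an intensity trend and 1 with its robust form. That probe set, 1450192_at, is not named in the annotation used here and was singled out after its value was seen. The replicate block gave 0.61 for Rag1, 0.67 for Rag2 and -0.15 for Dntt 1449757_x_at, with adjusted p-values of 0.814, 0.758 and 0.842, and changed no call. In their titles, same-numbered samples share a replicate number. Their deviations from the group means correlated at 0.01, -0.01 and 0.00, and 1 of 6 arrays was closest to its own number. With 3 arrays per group, these values cannot show whether such samples were handled together. The median of the joining partners was -0.10 with cyclic loess and -0.042 with quantile normalization, and -0.26 to 0.088 when arrays were left out. Leaving out arrays gave -0.15 to 0.15 for the transcription factors, -0.16 to 0.035 for the LSK genes and -0.074 to 0.15 for the mature lineage genes, and in all 3 the sign changed without Tet1 KO replicate 2. The transcription factor median was also above 0 without WT replicate 3 (0.0067), with cyclic loess (0.066) and with quantile normalization (0.014). With cyclic loess the LSK median was 0.018 and the mature lineage median -0.012. The T-lineage median, 0.087, was -0.022 without Tet1 KO replicate 2 and -0.019 with cyclic loess, and the lymphoid-primed median, 0.10, was -0.0044 without WT replicate 3. The causes of these changes were not tested. The r of Rag2 and Dntt was 0.03 with the mean of probe sets, and no r passed adjustment. Precision is limited by 3 arrays per group, and 3 of the 6 Rag1 values lay under the bacterial control of their own array.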

Other observations

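The neighbours of the 3 genes included both higher and lower means in Tet1 KO. Iftap, whose annotated span shares 4320 bases with that of Rag2, read 8.09, 7.96 and 8.13 at its brightest probe set in Tet1 KO, against 8.49, 8.44 and 8.56 in WT. The 3 Tet1 KO arrays were all below the WT arrays there, at -0.44 (SE 0.14; limma adjusted p = 0.686), while Rag2 was higher in Tet1 KO by mean. The other 3 Iftap probe sets were below the bacterial control level and gave 0.02, 0.00 and -0.38. Traf6, the nearest coding gene on the Rag1 side, gave -0.23 (SE 0.25) at its brightest probe set. Beside Dntt, Blnk gave 0.16 (SE 0.51; 0.54 without Tet1 KO replicate 2), under the bacterial control level, and Opalin gave 0.17 (SE 0.20). These genes were chosen for their position after their values were seen, and 4 of the 5 Traf6 probe sets were higher in Tet1 KO by mean.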
